A study of Mus musculus with 3 samples.

Results

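Ibsp-high, Bglap-positive cells are a class with RNA of the mineral matrix genes Ibsp and Bglap, among Pthrp-mCherry+ cells sorted from mouse molars. Mineral deposition by these cells was not measured. The class was picked by 3 measured gene levels. Cells were kept if they had 500 genes or more and a mitochondrial share of UMIs (unique molecular identifiers) no higher than 20%. Of these, a member had Ibsp at 1.5% or more of its UMIs, Bglap at 0.1% or more, and no more than 1 UMI of Hand2, Nts and Alx1 together. The rule found 935 members among 24328 kept cells of 27089 deposited, which is 3.84%. Every cell came from Pthrp-mCherry knock-in mice, at postnatal day 15 (P15), P25 or 8 weeks, with 1 library of pooled, FACS-sorted cells for each age and the labels set the groups apart by age, although each age is also a library of its own and P25 was counted separately. No unsorted cells were analysed here, and mCherry from the Pthrp locus labels the cementoblast lineage, precursors included. Library totals, from the youngest age to the oldest, were 188157997, 169712592 and 46234378 UMIs, and kept cells had a median of 15270.5, 16586 and 9370 UMIs. With a single library for each age, differences between ages were described and not tested.

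Cementoblasts line tooth roots and lay down cementum, the mineral in which the ends of ligament collagen fibres are embedded. They share much of their matrix with osteoblasts, including collagen I, bone sialoprotein (Ibsp) and osteocalcin (Bglap). Mineral growth in such tissues depends on the balance of phosphate and its inhibitor pyrophosphate, which Enpp1 makes outside the cell, Ank exports and the phosphatase Alpl breaks down.

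The rule set the levels of its own genes, which are given only to describe the class. In order of age, Ibsp took a median of 2.59%, 2.94% and 3.25% of the UMIs of a member, with single cells up to 10.7%. Bglap took a median of 0.448%, 0.544% and 0.624%, with single cells up to 6.30%. No gap in the values separated members from the rest. At P15 the lowest Ibsp share among members was 1.504% and the highest just outside was 1.495%, and 34 of the 486 members lay within 10% above that line. For Bglap the nearest values on either side at P15 were 0.1002% and 0.0986%. The Bglap minimum was also reached by 37 of 1250 (2.96%), 5 of 276 (1.81%) and 0 of 32 immune cells, which do not make osteocalcin. A value of 0 of 32 cells still allows a share of up to 9.38% by 3 counts.

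Members had depth like that of the other kept cells, with a median of 15055, 14669.5 and 9963 UMIs at P15, P25 and 8 weeks against 15297.5, 16673 and 9323. High Scrublet doublet scores, taken as the top 6% of each library, were found in 18, 9 and 11 members (3.70%, 3.36% and 6.08%), against 6.1%, 6.09% and 5.99% of the other cells. The like classes tested below had such scores in 18.5%, 4.11% and 4.01% (Ibsp-high cells with Hand2, Nts or Alx1, 5 of 27 at P15) and in 9.68%, 6.25% and 0% (beta-type cells). The libraries shared few cell barcodes, namely 26 between P15 and P25, 16 between P15 and 8 weeks and 13 between P25 and 8 weeks.

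The class was present at every age, whereas another class of Ibsp-high cells came to outnumber it. Members made up 4.26% of kept cells at P15 (486 cells, 95% Clopper-Pearson interval 3.90 to 4.65), 3.22% at P25 (268 cells, 2.85 to 3.62) and 3.94% at 8 weeks (181 cells, 3.40 to 4.55). The intervals, which cover counting error only, overlapped between 8 weeks and either other age but not between P15 and P25. Ibsp-high cells with at least 2 UMIs of Hand2, Nts and Alx1, genes known from cells around the root tip, numbered 27, 559 and 499 in order of age, or 0.237%, 6.71% and 10.9% of kept cells. Members therefore fell as a share of all Ibsp-high cells, from 56.7% (53.3 to 60.1) at P15 to 26.7% (24 to 29.6) at P25, and made up 24.1% (21.1 to 27.4) at 8 weeks. A working name of early cementoblasts fits this share of Ibsp-high cells but not the share of all kept cells, so the class is called by its rule here.

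**Figure D1:**
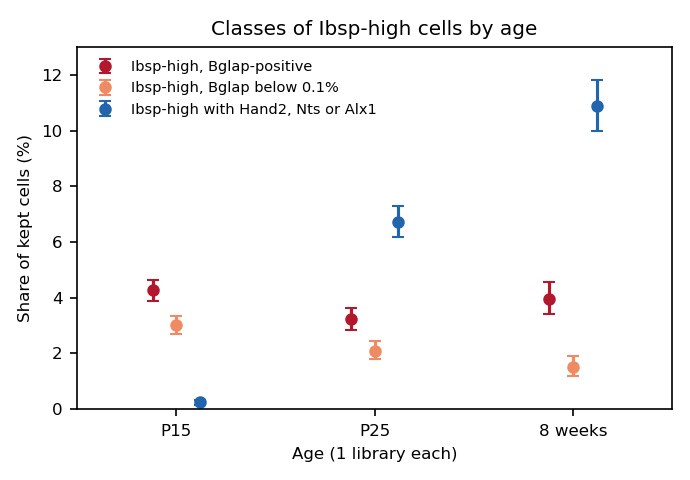
Share of kept cells (%) of 3 classes of Ibsp-high cells at each age, with exact 95% intervals from cell counts in 1 library per age. Ibsp-high, Bglap-positive cells stayed between 3.22% and 4.26%, while Ibsp-high cells with Hand2, Nts or Alx1 went from 0.237% to 10.9%.

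UMIs of all members of a library were summed and scaled to CPM, counts for each 1000000 UMIs, and compared with the sum of all other kept cells of the same library. Ratios below are log2 with a pseudocount of 1 CPM, as mean ± SD over the 3 libraries (n = 3). Because the cells were picked on the same measurements, this comparison carries no test. Of 6426 genes with a mean of at least 20 CPM in either class, 145 were at least 2-fold higher in members in each library (2.26%) and 353 at least 2-fold lower (5.49%). These shares are the background for every count of listed genes against other cells below. A count of 1 gene in a list is not read as a result about that list.

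The genes used to mark the class stood among the highest. Megf10, a receptor for engulfment of cell debris, was at 139.6, 72.8 and 91.9 CPM in members at P15, P25 and 8 weeks and at 5.59, 3.53 and 5.50 CPM in other cells, a ratio of 4.09 ± 0.30. Bmp8a, a bone morphogenetic protein ligand, was at 185, 137 and 195 CPM against 7.51, 9.62 and 15.1 (3.92 ± 0.46). Enpp1 was at 423, 243 and 295 CPM against 24.7, 32.0 and 54.3 (3.12 ± 0.84). Each of these was many times higher in members of every library, and the levels of the 3 libraries did not overlap between the classes. Ank was at 827, 585 and 810.2 CPM against 76.9, 113 and 148 (2.74 ± 0.58). Cort, which encodes the neuropeptide cortistatin, was at 872, 30.6 and 3.30 CPM against 23.2, 0.36 and 0.0921 (3.90 ± 1.69), so that its level depended on age far more than that of the other markers. Without P15 the mean level of Cort fell under the 20 CPM needed for a call. The call of Cort was also lost with a pseudocount of 10 CPM. All 5 genes, chosen with results of these cells known, were called higher, against 2.26% of all genes, and nothing is read from this since the same cells chose them.

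After thinning each cell to 3000 UMIs, Ank had a UMI in 82.7, 72.2 and 75.4% of members, Enpp1 in 57.2, 45.1 and 46.1%, Bmp8a in 39.1, 28.9 and 35.3% and Megf10 in 32.9, 18.8 and 24% at P15, P25 and 8 weeks. Without thinning, the shares for Megf10 were 77.8, 54.5 and 42.0%. Immune cells with the same thinning had Ank in 7.48, 7.58 and 3.57%, Enpp1 in 3.42, 17.8 and 0% and Megf10 in 0.45, 0.758 and 0%. The Enpp1 share in immune cells at P25 stood well above that at P15, and the member share exceeded it in each library.

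Ibsp belongs to a group of acidic matrix proteins whose genes lie side by side on chromosome 5 (GRCm38, GENCODE vM21): Dspp at chr5:104170712-104180127, Dmp1 at chr5:104202613-104214102, Ibsp at chr5:104299171-104311469, Mepe at chr5:104325329-104338611 and Spp1 at chr5:104435118-104441050, all on the forward strand. Ibsp was set by the rule, and besides it members used Spp1 and Dmp1. Spp1 (osteopontin) was at 5300.3, 9596 and 7163 CPM in members and 239, 699 and 1140.3 in other cells (3.63 ± 0.92). Dmp1, a regulator of mineral growth, was at 571, 459.6 and 282 CPM against 15.9, 72.1 and 74.2 (3.22 ± 1.66). Dspp, the main odontoblast gene, was at 10.7, 0.433 and 0 CPM in members, and Mepe at 0, 0.217 and 0 CPM, so both were at or near the level that 3 UMIs stand for in most of the libraries, except Dspp at P15.

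Bglap2, a near-identical neighbour of Bglap on chromosome 3, was at 6326, 8022 and 10870.0 CPM in members and 470.4, 1352 and 3721 in other cells (2.62 ± 1.1). Reads of Bglap, Bglap2 and Bglap3 can be split between copies by the counting, so these values follow the rule in part. Mgp, an inhibitor of mineralization, was among the lowest genes relative to other cells, at 38.5, 8.45 and 9.36 CPM against 563, 206 and 469 (-4.60 ± 0.84). Sparc, a collagen-binding matrix protein, was abundant in both classes at 12412, 21498 and 13507 CPM and 9631, 17377 and 12720.5 CPM. Of the 7 measured genes of mineral matrix, 3 were higher (Spp1, Dmp1, Bglap2) and Mgp was lower, with a median of 0.25 against -0.06 over all genes. Bglap2 restates the rule in part and is not counted as a result, although this tally and median include it.

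The promoters of Ibsp, the gene that defines the class, and of Cort, the marker that changed most with age, are shown as 300-base RefSeq windows (GRCm38.p6) from 250 bases before the start of the transcript. Ibsp lies at chr5:104299037-104299336 on the forward strand and Cort at chr4:149126714-149127013 on the reverse strand. Capitals mark matches on either strand to 4 motifs of factors known in mineral-forming cells, TGTGGT (RUNX), CTTTGA (TCF/LEF), TAATTA (homeodomain) and TGACGT (cyclic AMP response element), which do not overlap one another here.
Ibsp: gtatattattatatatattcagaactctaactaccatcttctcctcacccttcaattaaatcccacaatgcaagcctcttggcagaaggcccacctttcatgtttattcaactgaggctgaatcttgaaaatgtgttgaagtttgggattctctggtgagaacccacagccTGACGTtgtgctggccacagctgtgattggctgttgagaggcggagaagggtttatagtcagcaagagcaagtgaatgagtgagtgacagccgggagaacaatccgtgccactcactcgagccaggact
Cort: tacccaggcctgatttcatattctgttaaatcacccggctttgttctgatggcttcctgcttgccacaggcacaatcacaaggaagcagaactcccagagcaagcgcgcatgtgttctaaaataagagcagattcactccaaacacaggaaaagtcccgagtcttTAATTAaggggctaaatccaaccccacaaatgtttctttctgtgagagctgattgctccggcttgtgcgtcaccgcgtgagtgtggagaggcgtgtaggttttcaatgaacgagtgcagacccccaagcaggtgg
The Ibsp window held 1 match, TGACGT from base -79, and the Cort window held 1 match, TAATTA from base -85. Among 138 promoters matched by symbol to 105 of the 145 genes higher in members, TAATTA was present in 7.25%, TGTGGT in 7.97%, TGACGT in 7.97% and CTTTGA in 13%. Among 6377 promoters of all genes with a level in this comparison, the shares in the same order were 2.31%, 11.3%, 12.6% and 11%, and among all 32851 mouse promoters of the same length they were 5.29%, 16.8%, 7.51% and 16.0%. CTTTGA thus stood above the first background and below the second, and TGACGT below the first and near the second. These matches describe the letters in these windows only.

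Genes of phosphate and pyrophosphate handling were split. Smpd3, the sphingomyelinase needed for mineralization, was at 926, 1092 and 1113 CPM against 319, 336 and 230.5 (1.83 ± 0.38) and was called higher together with Enpp1 and Ank. Slc20a2, a phosphate carrier, was lower at 10.6, 5.42 and 5.50 CPM against 32.4, 25.2 and 28.5 (-1.91 ± 0.34). Alpl, which breaks down pyrophosphate, was at 73.1, 307 and 240.0 CPM in members and 213, 216 and 224 CPM in other cells, so that members lay below at P15 and above at P25 and 8 weeks. In all, 3 of 7 measured genes of this list were higher and 1 lower. Phospho1 was near the floor at 1.17, 1.73 and 1.65 CPM.

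Of 6 measured BMP ligands, 3 were higher, namely Bmp8a, Bmp3 (1025, 704 and 1149.7 CPM against 118, 165 and 271, 2.43 ± 0.59) and Bmp2 (422, 291 and 439 CPM against 85.9, 126 and 194, 1.55 ± 0.63), and none was lower. Of 12 measured BMP antagonists and response genes, none was higher and 6 were lower: Id1, Id2, Id4, Grem1, Fst and Sostdc1. Over all genes, 2.26% were higher and 5.49% lower. Id1, a target of BMP signalling, was at 143, 124 and 149 CPM against 558, 301 and 383 (-1.53 ± 0.37).

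Of 6 measured Wnt ligands, Wnt5a, Wnt5b and Wnt7b were higher and Wnt4 was lower. Wnt5a, a non-canonical ligand, was at 698, 568 and 770.0 CPM against 152, 242 and 249 (1.68 ± 0.48). Wnt10a, known for its role in tooth formation, was at 177, 167 and 214 CPM against 67.6, 87.7 and 58.3 (1.38 ± 0.47) and missed the 2-fold limit in 1 library, P25. Among 15 measured Wnt inhibitors and targets, the secreted inhibitor Sfrp4 (329.9, 304 and 358 CPM against 46.3, 48.1 and 106, 2.40 ± 0.57) and the feedback inhibitor Nkd2 were higher, while Dkk2 and Sfrp1 were lower. The calls of Wnt5a, Wnt4 and Nkd2, and of Bmp2, Fst and Slc20a2 above, did not hold with lineage-marked cells left out of the other cells. Lineage-marked cells had 2 or more UMIs of an immune, epithelial, endothelial, glial or erythroid list, which does not type the cells. At P15, P25 and 8 weeks the epithelial list alone marked 81.1%, 64.9% and 9.18% of other cells. It also marked 76.7%, 55.2% and 8.29% of members, which were kept. In this setting mean ratios were 1.33 for Wnt5a, -1.10 for Wnt4 and -1.66 for Slc20a2. With an Ibsp minimum of 1.0% the calls of Nkd2 and Bmp2 were lost. Nkd2 also lost its call with a Bglap minimum of 0.2%, 0 UMIs of Hand2, Nts and Alx1 and a pseudocount of 10 CPM. The call of Fst was also lost without P15.

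Pthlh, the gene of the reporter allele, was at 610.2, 403 and 358 CPM in members and 129, 184 and 223 CPM in other cells (1.35 ± 0.79), and the mCherry transcript at 1045, 665 and 711 CPM against 284, 349 and 534 (1.07 ± 0.74). Both were above other cells in each library and neither reached 2-fold in every one. The receptor Pth1r was at 69.7, 59.4 and 74.3 CPM against 54.1, 41.2 and 46.3. Tnfrsf11b, the decoy receptor (osteoprotegerin) that blocks osteoclast formation, was at 304, 186 and 324 CPM against 49.5, 50.1 and 61.2 (2.28 ± 0.37) and was the only gene called among 5 measured in this axis. The ligand it binds, Tnfsf11 (RANKL), was at 0.782, 0.217 and 0 CPM, near the floor.

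Among 20 measured transcription factors of mineralized tissue, Mef2c alone was higher, at 1205, 764 and 1189 CPM against 228, 175 and 233 (2.29 ± 0.15), and Sox9 and Msx2 were lower. The call of Msx2 was lost with an Ibsp minimum of 1.0% and with a pseudocount of 10 CPM. Sox9, a factor of cartilage and tendon progenitors, was at 9.26, 7.80 and 9.91 CPM against 107, 71.3 and 121 (-3.31 ± 0.24). Runx2, the main factor of osteoblast formation, was at 556, 315 and 439.8 CPM against 225, 182 and 271 (0.93 ± 0.33). Sp7, which acts after Runx2, was at 87.2, 146 and 117 CPM against 70.5, 91.1 and 95.8 (0.42 ± 0.22). The median of the list was -0.02, close to that over all genes.

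Genes of the ligament and tendon list differed in both directions. Thbs4, a tendon and ligament thrombospondin, was at 3040.4, 3792 and 5955 CPM against 735, 442 and 1156 (2.5 ± 0.54). Tnmd (tenomodulin) was at 526, 475 and 529 CPM against 146, 123 and 58.9 (2.31 ± 0.72), and Timp3, a metalloproteinase inhibitor, at 1772, 1248 and 2295 CPM against 316, 322 and 823 (1.97 ± 0.50). In contrast, Postn, a ligament matrix protein, was at 281, 812 and 764 CPM against 953, 2079 and 2055 (-1.51 ± 0.22), and Aspn at 29.5, 101 and 40.7 CPM against 472, 525 and 418 (-3.22 ± 0.80). Of 11 measured ligament and tendon genes, 2 were higher and 6 lower (Aspn, Fbln5, Fmod, Ogn, Postn and Tnc), with a median of -1.51. The call of Tnmd did not hold with lineage-marked cells left out of the other cells, where its mean ratio was 1.79, and that of Fmod was lost without P25.

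Collagen I was abundant without being particular to members, with Col1a1 at 14726, 28476 and 15643 CPM against 12264, 23273 and 15539 (0.19 ± 0.16). Of 10 measured fibrillar collagen genes, Col11a2 was higher and Col27a1 lower. Of 16 other collagens, the transmembrane Col13a1 (74.6, 57.4 and 73.8 CPM against 29.3, 7.08 and 5.85, 2.54 ± 1.1) and Col15a1 (2.27 ± 0.88) were higher, and 6 were lower (Col4a1, Col4a2, Col6a3, Col8a2, Col14a1 and Col16a1). Under TMM scaling the calls of Col6a3, Col8a2 and Col16a1 were not kept. Among 23 genes of collagen processing, Loxl2, a lysyl oxidase, was the single gene called, at 256, 349 and 320.3 CPM against 86.4, 161 and 130.2 (1.32 ± 0.22).

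Other genes among the 15 with the largest ratios were Serpini1 (neuroserpin) at 113, 82.6 and 86.4 CPM (4.02 ± 0.40), the secreted phospholipase Pla2g5 at 156, 177 and 188 CPM (3.41 ± 0.38), Smim5 at 113, 17.3 and 21.5 CPM (3.40 ± 0.53), the growth factor Fgf9 at 78.6, 95.1 and 146 CPM (3.19 ± 0.44), the surface protein Cd200 at 419.9, 307 and 505 CPM (2.65 ± 0.14) and Cyfip2 at 79.9, 77.6 and 144 CPM (2.63 ± 0.42). Ifitm5, known from osteoblasts, was at 354, 739 and 786 CPM against 46.7, 118 and 51.2 (3.15 ± 0.67). Besides Cort, the opioid precursor Penk was higher among 4 measured neuropeptide genes (96.9, 159 and 258 CPM against 46.1, 40.7 and 51.0, 1.77 ± 0.65), and Tac1 was lower. Of 9 transport genes, 3 were higher, the water channel Aqp1 (483, 561 and 539 CPM against 85.2, 259 and 233), the potassium channel Kcnma1 and the sodium-calcium exchanger Slc8a3. Of 9 engulfment genes, Megf10 was higher and Gas6 and C1qa were lower. With lineage-marked cells left out of the other cells, C1qa turned to higher and the calls of Penk and Aqp1 did not hold, with a mean ratio of 1.23 for Aqp1. The calls of Kcnma1 and Penk were lost when members were chosen on a random part of the UMIs and values taken from the rest, and with a pseudocount of 10 CPM. That of Penk was also lost with an Ibsp minimum of 1.0%, and those of Smim5 and Tac1 were lost without P15.

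**Figure D2:**
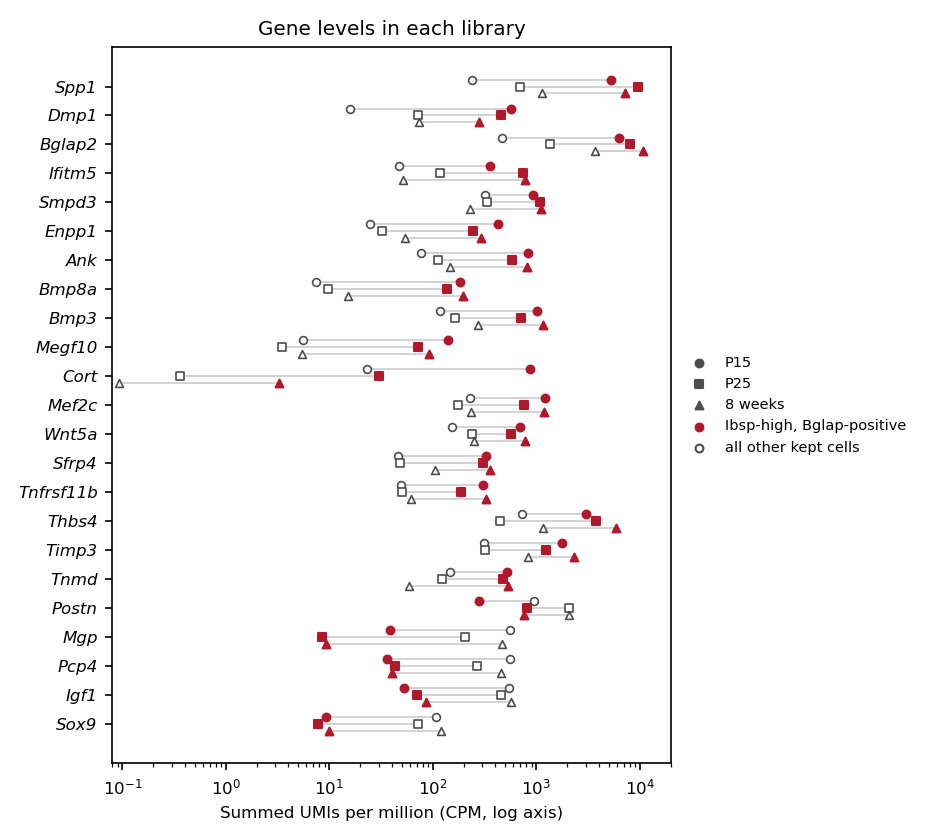
Levels of 23 genes in CPM (log axis) in Ibsp-high, Bglap-positive cells (filled red) and all other kept cells (open), with 1 symbol per library (circle P15, square P25, triangle 8 weeks). Genes from Spp1 to Tnmd lie to the right in members of every library and the last 5, from Postn to Sox9, to the left, with Cort spread over the widest range.

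Genes of less mature cells were low in members. Of 9 measured precursor genes, 7 were lower (Col16a1, Crabp1, Cxcl12, Igf1, Igfbp4, Ogn and Pcp4), with a median of -2.69. Pcp4 was at 36.5, 43.3 and 40.2 CPM against 563, 269.8 and 457 (-3.33 ± 0.66) and Igf1, a growth factor, at 52.8, 70.6 and 85.9 CPM against 546, 459.8 and 565 (-2.91 ± 0.38). Of 10 measured cell cycle genes, 6 were lower and none higher, and the proliferation marker Mki67 was at 8.34, 3.03 and 10.5 CPM against 56.6, 66.4 and 29.3. With lineage-marked cells left out of the other cells, Mki67, Ccnb2, Cdk1, Cenpf and Stmn1 lost their calls, and Hmgb2 alone of the 6 kept it. The 14 dissociation stress genes gave no call, with a median of -0.36, and Fos, the most abundant, was at 3927, 2827 and 4271 CPM against 3945, 3710.0 and 6421.

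Immune, epithelial and erythroid markers were lower in members than in other cells and not absent. The 9 immune genes summed to 596.4 CPM in members at P15, 11.5 at P25 and 11 at 8 weeks, against 7952, 675.9 and 236.6 in other cells. The most abundant, S100a9, and S100a8 made up most of this, with S100a8 at 205, 1.52 and 2.75 CPM in members. The 8 epithelial genes, led by Krt14 at 153, 87.3 and 17.1 CPM, summed to 284.2, 151.9 and 42.4 CPM against 3312, 5687 and 1228. Erythroid genes, led by Hbb-bs, summed to 144.0, 46.4 and 18.2 CPM against 2919, 2318 and 49.9, and endothelial genes, led by Pecam1, to 10.7, 0.867 and 0 CPM against 58.1, 11.2 and 12.9. Glial genes, led by S100b, summed to 14.6, 3.03 and 15.4 CPM against 39.5, 12.2 and 13.4, so that members were not below at 8 weeks. Mural genes, led by Rgs5, summed to 40.4, 49.2 and 111.7 CPM against 334.8, 74.9 and 157.6. Rgs5 was nevertheless called higher in members than in both like classes tested below. Its call against beta-type cells was lost without P25 and with a wider beta-type class. The osteoclast list summed to 412.6, 670.6 and 636.8 CPM, against 420.7, 635.8 and 567.1 in other cells, with most of it from Ctsk and Dcstamp at 0. Of its 3 measured genes, Acp5 and Mmp9 were lower and none was higher (median -2.70 on the log2 scale). The call of Mmp9 was lost without P15. Of the 10 largest falls relative to other cells, Krtdap, Krt14, Dmkn, Ly6d, Fxyd3, S100a8 and Lyz2 are epithelial or immune genes, and Mt3, Mgp and Igfbp2 complete them. With lineage-marked cells left out of the other cells, Krt14, Ly6d, Fxyd3, S100a8 and Lyz2 turned to higher. Krtdap, Dmkn and Mt3 lost their calls, and Mgp and Igfbp2 kept theirs. In that setting 258 genes were lower in place of 353, and 218 of them were shared. Higher genes numbered 130 in place of 145, with 114 shared. The 10 osteocyte genes, led by Dmp1, summed to 926 CPM in members at P15, 741.2 at P25 and 697.9 at 8 weeks, against 125.8, 190.2 and 212.7 in other cells. Of the 4 measured, Dmp1 and Tnfrsf11b were higher and none was lower (median 1.62 on the log2 scale), while Sost was at 0.13, 0 and 0 CPM in members and Fgf23 at 0. Against Ibsp-high cells with Hand2, Nts or Alx1, Pdpn and Irx5 of this list were higher. Against beta-type cells, of 5 tested, Fbln7 and Irx5 were lower and Tnfrsf11b was higher, with a median of -1.77.

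Members also differed among themselves. When the members of each library were split into 3 equal parts by Bglap share, which lies within the rule and is a description only, Spp1 was at 3109, 5717 and 5223 CPM in the lowest part and 7759, 14151 and 9603 CPM in the highest at P15, P25 and 8 weeks. Cort was at 686, 9.57 and 0 CPM in the lowest and 1002, 43.8 and 5.38 CPM in the highest part. The matrix genes Aspn and Tnn went the other way, with Aspn at 62.6, 218 and 85.4 CPM in the lowest part and 10.3, 30.4 and 7.17 CPM in the highest, and Tnn at 31.9, 316 and 308 against 12.4, 83.8 and 104. Median depth of the parts lay between 14624.5 and 15187.5 UMIs at P15, between 13852 and 16274 at P25 and between 9750.5 and 10433 at 8 weeks, and its part in these differences was not tested.

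A UMI of these genes was not found in every member. After thinning to 3000 UMIs, Spp1 had a UMI in 65.2, 75.2 and 83.2% of members at P15, P25 and 8 weeks, while Dmp1 had one in 44.9, 27.1 and 28.7% and Ifitm5 in 45.7, 58.6 and 71.9%. Without thinning the shares were 79.0, 84.0 and 88.4% for Spp1, 64.0, 45.9 and 51.9% for Dmp1 and 71.6, 78.4 and 85.6% for Ifitm5. Thinned immune cells had shares of 11.7, 14 and 10.7% for Spp1, 1.17, 1.52 and 0% for Dmp1 and 3.06, 2.65 and 3.57% for Ifitm5. Phex, an osteocyte and osteoblast gene, had a UMI in 0.206, 0 and 0.599% of members, at or near the immune share of 0.27, 0 and 0%. Dmp1 and Ifitm5 were thus found in similar shares of members at P15, and Ifitm5 in the larger share at P25 and 8 weeks.

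Members were compared with 2 like classes by a test on UMIs that had played no part in choosing the cells. Ibsp-high cells with Bglap under 0.1% and at most 1 UMI of Hand2, Nts and Alx1 were not tested. They differ from members by the Bglap limit alone and are described at the end. Each UMI was put at random into part A, on which cells were classed, or part B, which was summed and tested with edgeR with the library as a block. Both classes of a library come from the same pool of cells. With the block, p-values measure only how the difference between classes varied over these 3 libraries, 1 for each age. Calls needed a Benjamini-Hochberg adjusted p below 0.05 together with a change of more than 2-fold. Levels in these comparisons are TMM-scaled CPM of part B.

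Against Ibsp-high cells with Hand2, Nts or Alx1 (42, 566 and 494 cells on part A), members (475, 251 and 171 cells) had 282 genes higher (2.86% of 9874 tested) and 185 lower (1.87%). Spp1 and 3 of the 5 marker genes were higher in members, and Ptn, Mmp9 and Dkk2 were lower. Spp1 was at 5410.4, 10353 and 7453 CPM in members and 2631, 4736 and 3765 CPM in the other class (log2 fold change 1.05 ± 0.09 (SE), adjusted p = 1.71e-06). Its change lay close to the 2-fold limit, and the call was lost with all UMIs and without high doublet scores. Members but not the other class were chosen on Bglap, and Spp1 rose with the Bglap share among members. It was at 3109, 5717 and 5223 CPM in the lowest part by Bglap and 7759, 14151 and 9603 CPM in the highest. The part of the Bglap limit in the Spp1 difference was not tested. Megf10 (log2 fold change 1.36 ± 0.16 (SE), adjusted p = 2.85e-05), Bmp8a (log2 fold change 1.73 ± 0.15 (SE), adjusted p = 1.04e-06) and Cort (log2 fold change 2.70 ± 0.36 (SE), adjusted p = 0.00743) were higher too, whereas Enpp1 and Ank did not pass both limits, with changes of 0.15 ± 0.23 and 0.57 ± 0.13 (adjusted p = 0.79 and 0.0135). The 3 of 5 marker genes that passed stand against 2.86% of all genes, and the list was drawn with these cells in view. In the same test, Ibsp itself, which chose both classes, was at 28187, 39065 and 35679.8 and 30130.2, 37568 and 40647 CPM.

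Among genes at a mean of 50 CPM or more in members, the 8 largest rises over this class were Col13a1, Bglap3, Ackr4, Bglap2, Col15a1, Mamdc2, Cryab and Sema7a. Of these, Bglap2 and Bglap3 can share reads with Bglap, on which members but not this class were chosen, so their rises restate the rule in part and are not counted as a result. Col13a1 was at 68.3, 64.5 and 80.1 CPM against 17.9, 3.19 and 2.51 (log2 fold change 4.06 ± 0.43 (SE), adjusted p = 0.00186), a call lost without P25, as were those of Bglap2 and Col15a1. Ackr4, a scavenging chemokine receptor, was at 30.7, 74.6 and 130.4 CPM against 2.56, 9.04 and 6.28 (log2 fold change 3.59 ± 0.26 (SE), adjusted p = 6.65e-07). Mef2c was higher in members as well (log2 fold change 1.16 ± 0.17 (SE), adjusted p = 0.00323), as were Wnt10a (log2 fold change 1.02 ± 0.15 (SE), adjusted p = 2.77e-04) and Wnt6 (log2 fold change 1.29 ± 0.19 (SE), adjusted p = 2.26e-04), ligands that act through beta-catenin, and Pth1r (log2 fold change 1.14 ± 0.20 (SE), adjusted p = 0.0012). The calls of Mef2c and Pth1r were lost without 8 weeks and that of Wnt10a without P15. Of 20 transcription factors tested, Mef2c was the 1 higher and 4 were lower (Sox9, Runx1, Msx1 and Mkx), and of 9 Wnt ligands, 2 were higher and Wnt11 was lower (log2 fold change -2.13 ± 0.43 (SE), adjusted p = 0.0042). Of 7 BMP ligands, Bmp8a was higher and Bmp6 lower (log2 fold change -3.00 ± 0.36 (SE), adjusted p = 4.23e-05), while Bmp2 (-0.26 ± 0.16) and Wnt5a (0.35 ± 0.11) did not pass. Bmp3 (0.40), Fgf9 (0.43), Timp3 (-0.29) and Aqp1 (0.18) did not pass either. The higher levels of Bmp2, Wnt5a and these genes over all other cells are therefore not shown to be particular to members. A gene that passed is not shown to be particular to members either. Ibsp-high cells with low Bglap, described at the end, were not tested. Without P25 the calls of Sox9, Runx1, Mkx and Wnt11 were lost, as were those of Sox9 and Mkx without 8 weeks. DESeq2 lost the calls of Sox9, Runx1, Mkx and Wnt11 too, and that of Sox9 was also lost without the block. The adhesion receptor Itga10, a collagen-binding integrin, was at 30.9, 60.9 and 52.6 CPM against 10.2, 5.85 and 3.77 (log2 fold change 3.31 ± 0.29 (SE), adjusted p = 1.87e-06). The pericyte gene Rgs5, which did not reach a mean of 50 CPM, was at 23.7, 34.5 and 64.1 CPM against 0, 1.59 and 1.67 (log2 fold change 4.82 ± 0.34 (SE), adjusted p = 1.64e-07).

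The 8 largest falls against this class, among genes at a mean of 50 CPM or more in it, were Mmp9, Dkk2, Moxd1, Tagln, Abcc9, Dlg2, Ptn and Cttnbp2, in that order. Mmp9, a gelatinase, was at 10.2, 2.54 and 1.14 CPM against 138, 88.2 and 69.9 (log2 fold change -4.28 ± 0.27 (SE), adjusted p = 1.64e-07). Ptn (pleiotrophin), a secreted growth factor, was at 1233, 2036 and 1611 CPM against 5256, 9391 and 9904 (log2 fold change -2.31 ± 0.11 (SE), adjusted p = 2.91e-09), and the Wnt inhibitor Dkk2 at 5.38, 5.08 and 4.58 CPM against 51.2, 63.0 and 55.7 (log2 fold change -3.46 ± 0.25 (SE), adjusted p = 1.66e-07). Of 10 cell cycle genes, 6 were lower (Birc5, Cenpf, Hmgb2, Mcm5, Mki67 and Stmn1) and none higher, against 1.87% of all genes. Birc5, Mcm5 and Cenpf lost their calls with DESeq2 and without P25, Mcm5 and Cenpf also without 8 weeks and Birc5 without P15. Postn was lower as well (log2 fold change -1.62 ± 0.24 (SE), adjusted p = 0.0203). Its call was lost when all UMIs were used for choosing and testing. Ifitm5 was at 349, 759.7 and 779 CPM in members and 79.3, 56.6 and 14.7 CPM in the other class, above it in each library by an amount that differed between ages, and did not pass (log2 fold change 3.97 ± 0.96 (SE), adjusted p = 0.22). Smpd3 and Col11a2 were above likewise, at adjusted p = 0.28 and 0.0869.

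Beta-type cells were defined by Ibsp under 1.5% and at least 1 UMI each of Ifitm5, Phex and Col11a2, together at least 0.1% of UMIs, and stand for cells with genes of mature osteoblasts. They were few (30, 51 and 15 cells on part A) and deep, with a median of 28595, 37076 and 16345 UMIs for those found on all UMIs. Members had 412 genes higher (5.53% of 7448 tested) and 301 lower (4.04%) than beta-type cells. Only 1, 2 and 1 members at P15, P25 and 8 weeks met the gene criterion of the beta-type class.

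Of the lists, 3 of 5 marker genes, 3 of 5 Wnt ligands, 1 of 6 BMP ligands (Bmp3, a call lost without P15 and without P25) and 2 of 10 ligament and tendon genes (Thbs4 and Tnmd) were higher in members than in beta-type cells, and the tendon factor Scx was lower. Serpini1 was at 108, 89.4 and 77.4 CPM against 0, 1.27 and 0 (adjusted p = 7.84e-08), and since beta-type cells held 1 UMI against 701 in members, the ratio of shares was 164.2 with a counting interval of 29.4 to 6494. Thbs4 was at 2849, 3845 and 5427 CPM against 42.3, 182 and 76.0 (log2 fold change 5.29 ± 0.43 (SE), adjusted p = 0.00189) and Tnmd at 504, 489 and 467 CPM against 17.8, 20.4 and 0 (log2 fold change 4.86 ± 0.29 (SE), adjusted p = 6.07e-09). Megf10 (log2 fold change 4.94 ± 0.43 (SE), adjusted p = 2.57e-07), Cort (log2 fold change 5.99 ± 0.39 (SE), adjusted p = 9.72e-09) and Enpp1 (log2 fold change 2.75 ± 0.25 (SE), adjusted p = 9.36e-07) were higher, while Bmp8a (log2 fold change 0.52 ± 0.23 (SE), adjusted p = 0.18) and Ank (log2 fold change 1.16 ± 0.88 (SE), adjusted p = 0.59) did not pass. Wnt5a was at 648, 564 and 704 CPM against 86.7, 126 and 211 (log2 fold change 2.29 ± 0.21 (SE), adjusted p = 1.06e-06), and Wnt5b and Wnt7b passed too, the call of Wnt5b being lost without P15. Runx2 was higher in members (log2 fold change 1.81 ± 0.19 (SE), adjusted p = 2.96e-06), and Timp3, S100a4 and Sema3c completed the 8 largest rises among genes at a mean of 50 CPM or more in members. Of 21 transcription factors tested, 3 were higher (Tcf7, Pax9 and Runx2) and 4 lower (Sox9, Msx2, Runx1 and Scx), with a median of -0.26. Without P15 the calls of Tcf7, Sox9, Msx2 and Runx1 were lost, and without P25 those of Pax9, Sox9 and Runx1. Sema3c had 3 UMIs in beta-type cells and 427 in members (ratio 33.3, counting interval 11.3 to 162.3), and its call did not hold with a wider beta-type class.

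Beta-type cells had more collagen I. Col1a1 was at 13514, 27270.0 and 14037 CPM in members and 54124, 128182 and 70524 CPM in beta-type cells (log2 fold change -2.19 ± 0.12 (SE), adjusted p = 2.0e-09), and 5 of 9 fibrillar collagen genes were lower in members (Col1a1, Col1a2, Col5a2, Col11a1 and Col27a1) while Col3a1 (log2 fold change 2.26 ± 0.19 (SE), adjusted p = 7.79e-07) and Col5a3 were higher. The calls of Col3a1, Col5a2, Col5a3 and the processing genes Lox, Fkbp10 and P4ha2 did not hold with the wider beta-type class. That of Col27a1 was lost without P15 and without P25, that of P4ha2 without P15 and that of the processing gene Loxl3 without P25. Of 25 collagen-processing genes, 9 were lower and none higher, against 4.04% of all genes, among them Lox (log2 fold change -1.47 ± 0.18 (SE), adjusted p = 1.71e-05) and the collagen trimming protein Pcolce (log2 fold change -1.71 ± 0.15 (SE), adjusted p = 3.48e-07). Sparc (log2 fold change -1.47 ± 0.13 (SE), adjusted p = 2.57e-07) and Bglap2 (log2 fold change -1.80 ± 0.14 (SE), adjusted p = 6.39e-08) were lower in members too, the latter with the same limit on reads shared with Bglap.

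Among genes at a mean of 50 CPM or more in beta-type cells, the 8 largest deficits were Adamtsl2, Fbln7, Kcnk2, RP23-457J22.1, Kitl, Hpgd, Thbs1 and Car2. Adamtsl2 had 3 UMIs in members and 74 in beta-type cells, a share 105.3 times higher in the latter (counting interval 34.7 to 522.3). Fbln7, a matrix protein, was at 0.989, 1.40 and 0 CPM in members and 77.8, 127 and 118 CPM in beta-type cells (log2 fold change -6.55 ± 0.40 (SE), adjusted p = 4.04e-09), and the carbonic anhydrase Car2 at 6.43, 5.12 and 6.28 CPM against 205, 149 and 109.8 (log2 fold change -4.79 ± 0.27 (SE), adjusted p = 2.64e-09). Smpd3 was level between the classes at 835, 1056 and 959 CPM and 836, 1057 and 912 CPM, a change of 0.02 ± 0.15 on the log2 scale. Spp1 (log2 fold change 0.11 ± 0.59 (SE), adjusted p = 0.95) and Dmp1 (log2 fold change -1.77 ± 0.77 (SE), adjusted p = 0.37) did not pass, with beta-type levels of Dmp1 of 661, 1723 and 2011 CPM that varied with age. Pthlh and mCherry were above beta-type cells in each library without passing (log2 fold change 2.76 ± 0.82 (SE), adjusted p = 0.22 for Pthlh).

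**Figure D3:**
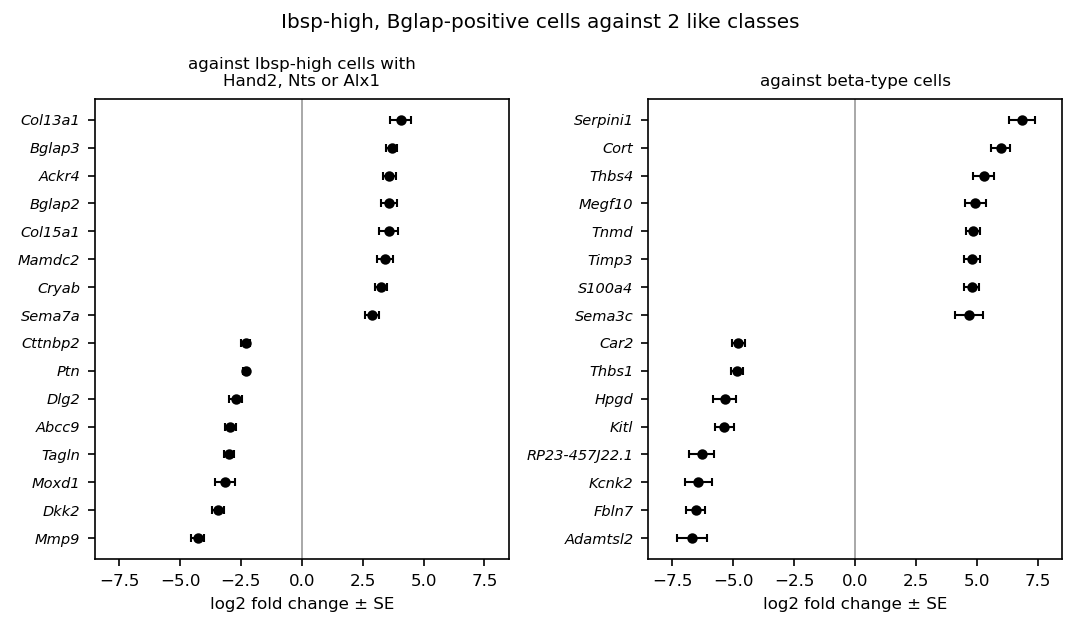
Log2 fold change ± SE (edgeR, 3 libraries) of the 8 largest rises and 8 largest falls, among genes at a mean of 50 CPM or more in the class where they were higher, of Ibsp-high, Bglap-positive cells against Ibsp-high cells with Hand2, Nts or Alx1 (left) and against beta-type cells (right). Values above 0 are higher in Ibsp-high, Bglap-positive cells, from -4.28 for Mmp9 to 4.06 for Col13a1 on the left and from -6.69 for Adamtsl2 to 6.85 for Serpini1 on the right, fitted values that rest on 3 and 1 UMIs in the lower class.

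**Figure D4:**
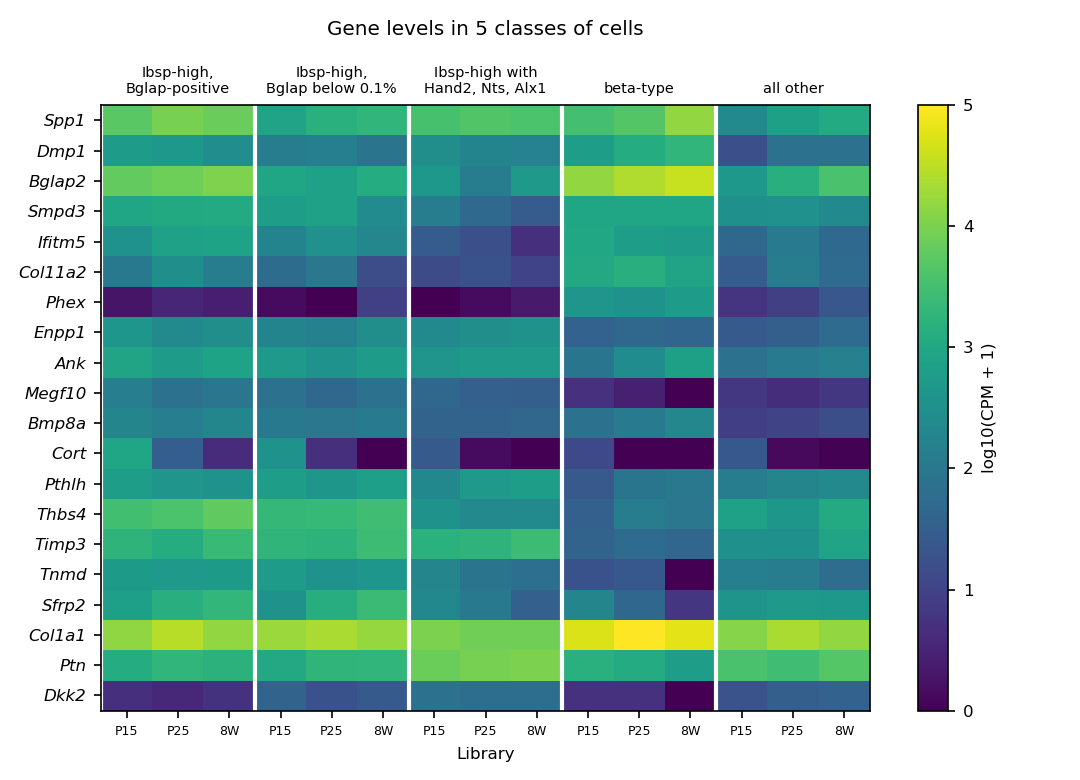
Levels of 20 genes as log10(CPM + 1), by colour, in 5 classes of cells and 3 libraries. Phex stands out only in beta-type cells, Cort in Ibsp-high cells at P15, and Thbs4 and Tnmd in the 2 leftmost classes.

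Members had less Cort, Col25a1 and Eln and more Lgals3, Acan and Sfrp2 at 8 weeks than at P15. Of 3185 genes with at least 50 CPM at P15 or 8 weeks, 122 were at least 2-fold higher at 8 weeks (3.83%) and 57 at least 2-fold lower (1.79%). Other cells shared many of these changes. For 49 of the 122 and 27 of the 57, the other cells changed by less than 1.5-fold in that direction or moved the opposite way. P25 was counted with another gene reference and Cell Ranger version, which cannot be told apart from its age, but P15 and 8 weeks had the same ones.

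Of the genes named here, Cort fell most. Its level in members was 872 CPM at P15, 30.6 at P25 and 3.30 at 8 weeks (Poisson intervals 852 to 893, 25.7 to 36.0, 1.21 to 7.19), a log2 change of -7.67 from P15 to 8 weeks, and other cells fell by 4.47 on the same scale. The share of members with a Cort UMI, thinned to 3000 UMIs, was 53.1, 5.26 and 1.20% at the 3 ages, against 1.44, 0 and 0% of immune cells. Loss of this transcript therefore showed both in the summed level and in the number of cells. Smim5 fell with it, from 113 CPM to 17.3 and 21.5 CPM.

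Of the 10 largest falls that other cells did not share, Col25a1, a transmembrane collagen, went from 52.8 CPM at P15 to 1.65 CPM at 8 weeks, while other cells stood at 7.94, 3.96 and 5.85 CPM. The level of Col25a1 at P15 was near the 50 CPM minimum, and its call was lost with an Ibsp minimum of 1.0%. Eln (elastin) was at 547, 303 and 146 CPM in members and 97.8, 77.1 and 78.6 CPM in other cells, a log2 change of -1.90 against -0.31. Spock1, a proteoglycan, was at 199, 65.0 and 52.3 CPM in members. Most of this fall lay between P15 and P25 for Col25a1 and Spock1, while Eln fell at both steps. Gm266, Ism1, Emid1, Sema6a, Slc7a8 and Dhrs3 fell by between 1.75 and 2.0 on the log2 scale, and Lgals7, an epithelial gene at 169, 848 and 231 CPM in other cells, by 2.89, a call that was lost without high doublet scores.

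Of the 10 largest rises not shared by other cells, Lgals3 (galectin-3) led with 24, 113 and 204 CPM in members and 166, 358 and 101 CPM in others, a log2 change of 3.04 against -0.71. Acan (aggrecan), a cartilage proteoglycan, was at 13.3, 67.4 and 63.8 CPM in members against 13, 9.68 and 6.24 CPM, and the xanthine oxidase gene Xdh at 15, 38.4 and 73.2 CPM against 10.3, 11.4 and 11.5. Alpl was at 73.1, 307 and 240.0 CPM, a log2 change of 1.70 against 0.08 in other cells. Acan and Alpl were already high at P25, whereas Lgals3 and Xdh rose at each step. Thbs1, Filip1l, Ltbp1, Htra1, the stress factor Atf3 and the Notch target Hes1 made up the rest, with log2 changes between 1.68 and 2.69. Htra1 was near the 50 CPM minimum, and its call was lost under 7 settings, TMM scaling among them.

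The Wnt inhibitor Sfrp2 rose from 656 CPM at P15 to 1412 at P25 and 2058 at 8 weeks (1.65 on the log2 scale, against 0.24 in other cells). Of the list of ligament and tendon genes, Postn, Tnc and Dcn rose in members and none fell, out of 6 measured, and Dcn and Postn rose more than 2-fold in other cells too (1.77 and 1.11). The rise of Tnc (1.21) was near the limit, and its call was lost with a Bglap minimum of 0.2%, with 0 UMIs of Hand2, Nts and Alx1 and with a minimum of 100 CPM. Lox was at 125, 412 and 359 CPM (1.52 against -0.14). Of 13 dissociation stress genes measured, Atf3 and Hspa1a rose, and other cells changed by 2.20 for Hspa1a and 0.13 for Atf3. The part of cell handling in these rises was not tested.

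**Figure D5:**
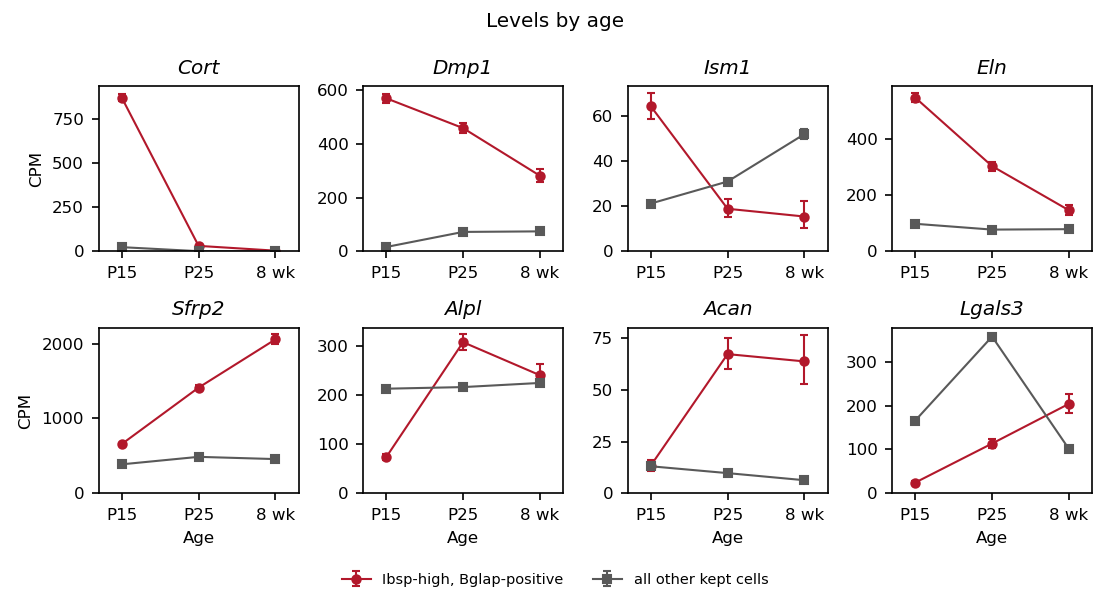
Levels (CPM) of 8 genes at each age in Ibsp-high, Bglap-positive cells (red circles) and all other kept cells (grey squares), with exact 95% Poisson intervals and 1 library per age. In the upper row Cort, Dmp1, Ism1 and Eln fell in members, and in the lower row Sfrp2, Alpl, Acan and Lgals3 rose from P15 to 8 weeks.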

How the data were processed

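Pthrp-mCherry+ cells were counted by 10x Chromium 3' sequencing. The deposited values are raw UMI counts per gene and cell, made by the authors with Cell Ranger. Per the file headers the version was 6.1.2 for P15 and 8 weeks and 6.0.1 for P25, where the submitters' notes give 6.1.2 and mm10. Only the 21446 gene identifiers found in every library entered, and they held 99.7%, 95.2% and 99.8% of UMIs. The members and gene lists were chosen with earlier results of these data known.

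UMIs were summed per library and class. Named genes were all listed genes and those with the largest ratios, 15 higher and 10 lower against other cells, 8 each way against each like class and 10 each way between ages that other cells did not share, at 50 CPM or more. Like classes were tested with edgeR 4.0.16 (TMM, filterByExpr, robust quasi-likelihood, Benjamini-Hochberg), with the library as a block since both classes come from 1 pool. Deviations of both classes from their means correlated by 0.239, 0.387 and 0.284, and by 0.208, 0.297 and 0.146 for beta-type cells. DESeq2 1.42.0 was an alternative. Calls were tested on simulated data. Scrublet's automatic threshold marked 415, 0 and 8 cells, so no doublet was removed. Intervals cover counting error only. Python 3.11.15, scanpy 1.11.5 and R 4.3.3 were used.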

Additional observations from a re-analysis of the deposited data

Results flagged for a closer look

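In all, 6 genes with at least 50 CPM at P15 or 8 weeks in both classes changed at least 2-fold between these ages in Ibsp-high, Bglap-positive cells and at least 2-fold the opposite way in all other kept cells. Each age is 1 library, so the difference was not tested. All other kept cells are a mixture that includes the Ibsp-high cells with Hand2, Nts or Alx1. These made up 0.237% of kept cells at P15 and 10.9% at 8 weeks. The part of this shift in the changes of other cells was not tested. Dmp1 changed by -1.02 on the log2 scale in members (571, 459.6 and 282 CPM) and by 2.16 in other cells (15.9, 72.1 and 74.2 CPM). This fall in members was close to the 2-fold limit and dropped under it with a Bglap minimum of 0.05% or 0.2%, with an Ibsp minimum of 1.0%, without high doublet scores and with a pseudocount of 10 CPM. Ism1 changed by -1.99 in members and by 1.26 in others. Pcsk6, a proprotein convertase, changed by -1.37 (92.6, 93.8 and 35.2 CPM) against 1.63, and Fbln2, a matrix protein, by -1.41 (89.7, 37.1 and 33.0 CPM) against 1.20. Lgmn, a lysosomal protease, changed by 1.5 (19.8, 39.4 and 57.8 CPM) against -1.05. Rgs5, a pericyte gene, changed by 1.55 (24.6, 27.7 and 74.3 CPM) against -2.24 (142, 11.8 and 29.4 CPM).

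Outside the quality filter, 12 deposited cells met the levels of Ibsp, Bglap and Hand2, Nts and Alx1 that define the class, 0 at P15, 2 at P25 and 10 at 8 weeks. With them the share of members was 3.76%, 3.01% and 3.68% of all deposited cells.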

How the results depend on the processing

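The share of members at P15, P25 and 8 weeks moved with the limits to 5.0%, 3.66% and 4.57% with an Ibsp minimum of 1.0%, to 3.22%, 2.65% and 3.40% with 2.0%, to 4.75% and 3.64% (P15 and P25) with a Bglap minimum of 0.05% and to 3.43%, 2.64% and 3.33% with 0.2%, and to 3.76% at P15 over all deposited cells. P25 had the lowest share of the 3 ages in each of these settings. Other settings, including cells thinned to 3000 UMIs, kept the shares within the intervals given. Against all other kept cells, 145 genes were higher and 353 lower. A pseudocount of 10 CPM left 217 lower, a minimum of 100 CPM left 77 and 100, and no minimum gave 1002 lower. TMM scaling moved the median ratio of all genes by 0.10 on the log2 scale, and then all 145 higher calls and 313 of the lower calls were kept. Leaving out a library gave between 170 and 178 higher and between 380 and 442 lower. With lineage-marked cells left out of the other cells, but not out of members, 20 genes turned from lower to higher: C1qa 0.46, Csf1r 0.62, Epcam 0.41, Fcer1g 1.02, Fxyd3 0.053, Hba-a2 0.57, Hbb-bs 0.86, Itga6 0.30, Krt14 1.42, Krt17 1.62, Krt5 1.61, Ly6d 0.45, Lyz2 0.64, Odam 1.01, Perp 1.35, S100a8 1.16, S100a9 1.33, Sfn 1.27, Trp63 0.66 and Tyrobp 0.92 on the log2 scale, by the construction of that setting. Between ages, 122 genes were higher and 57 lower at 8 weeks, which became 68 and 28 with a minimum of 100 CPM and 681 and 775 with none.

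Against Ibsp-high cells with Hand2, Nts or Alx1, the 282 higher and 185 lower became 182 and 111 with DESeq2, 298 lower without the filter on low counts, and 518 and 349 by adjusted p alone. Without high doublet scores they were 350 and 237. Without the replicate block 156 were higher. Leaving out a library gave between 166 and 444 higher and between 124 and 305 lower, with 444 and 305 without P15, whose library had 42 such cells on part A, 166 higher without P25 and 185 higher without 8 weeks. Against beta-type cells, the 412 higher and 301 lower became 240 higher with DESeq2, 495 lower by adjusted p alone and 201 higher with a wider beta-type class, chosen after seeing the data. Leaving out a library gave between 270 and 374 higher and between 252 and 317 lower, with 270 higher without P25. The block changed no count of calls against beta-type cells by over 1.5 times. Without it 22 listed or named genes lost their call against the first class, among them Ackr4, Birc5, Col15a1, Cort, Cryab, Mamdc2, Mcm5, Mef2c, Mki67, Postn, Sema7a, Spp1 and Wnt10a, and 24 against the second, among them Col27a1, Cort, Hpgd, Lox, P4ha2, S100a4, Thbs1 and Wnt5b. With another division of the UMIs into parts A and B, Adamts2, Bglap2, Birc5, Dlg2, Itga9, Mamdc2, Mcm5 and Sox9 lost theirs against the first class. Against the second, Atp2b4, Col15a1, Col16a1, Fkbp10, Pax9, Pth1r and Sfrp4 lost theirs. Except for what the settings' own construction shows, the cause was not tested. No named gene turned in direction in the like-class tests or between ages.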

Other observations

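Ibsp-high cells with Bglap under 0.1% and at most 1 UMI of Hand2, Nts and Alx1 numbered 344 at P15, 175 at P25 and 70 at 8 weeks, or 3.01%, 2.10% and 1.52% of kept cells. In them Wnt5a was at 806, 742 and 1219 CPM, Pthlh at 622, 449 and 666 CPM, Timp3 at 1866, 1676 and 2704 CPM and Tnmd at 544, 357 and 430.0 CPM. Wnt5a, Pthlh and Timp3 were thus above Ibsp-high, Bglap-positive cells in each library, and Tnmd at P15 only. Below the levels of Ibsp-high, Bglap-positive cells in each library were Spp1 at 839, 1480.3 and 1942 CPM, Dmp1 at 129, 140.3 and 82.5 CPM and Bglap2 at 862, 712 and 1249 CPM. Bglap2 can share reads with Bglap, which set these classes apart, so its lower level restates the rule in part and is not counted as a result. Also above in each library were Postn at 896, 2405 and 4048 CPM and Tnn at 79.8, 628 and 560.1 CPM, against 281, 812 and 764 and 18.1, 194 and 171 CPM in Ibsp-high, Bglap-positive cells. Cort was at 368, 3.89 and 0 CPM. The difference between these classes was not tested.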
